A study of Mus musculus with 12 samples.

Results

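The levels of 8 genes for cortical area patterning factors, Nr2f1, Nr2f2, Emx1, Emx2, Pax6, Lhx2, Lmo3 and Lmo4, were followed in single-nucleus RNA sequencing of the newborn mouse forebrain. The genes were chosen by symbol, and all 8 were among the 55335 genes listed in the files. Nuclei came from 8 wild-type (WT) and 4 heterozygous (Het) C57BL/6-Myt1l em1Jdd/J mice on postnatal day 1. Het mice carry, in every cell of the body, 1 frameshifted copy of Myt1l, which encodes a neuronal transcription factor, and no agent was given to either group. Each library held the nuclei of 1 animal, and animals differed in sex, with 5 male and 3 female WT and 3 male and 1 female Het libraries. Libraries are named by genotype and a running number, and WT 6, WT 7, WT 8 and Het 4 are the female ones. The question asked of these genes was how far they mark region and layer among the nuclei of each library, and whether their levels differed between WT and Het once that was seen.

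The neocortex acquires its areas from gradients of transcription factors that are set up in dividing progenitors by signals from the edges of the cortical sheet, and that are partly kept in the neurons born from them. Emx2 and Nr2f1 (COUP-TFI) are high at the caudal end and promote caudal areas, Pax6 is high rostrolaterally and promotes rostral areas, and Nr2f2 (COUP-TFII), the closest relative of Nr2f1, is found in caudal parts of the forebrain, in interneurons and in blood vessels. Emx1 marks the cortical progenitors and their excitatory descendants, and Lhx2 selects cortical identity against the hem at its medial edge. Lmo3 and Lmo4 encode LIM-only proteins, which bind no DNA themselves and connect other factors.

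UMIs, tags that each mark 1 captured RNA molecule, totalled 15439429 to 40784144 per library, and 96390 nuclei were kept, 7056 ± 2139 per WT (SD, n = 8) and 9986 ± 1109 per Het library (SD, n = 4; exact permutation test, two-sided p = 0.0323). No cell barcode was shared between libraries. Clustering without the 8 genes gave 47 clusters, of which 34, with 69.5% of nuclei, were named in 18 classes from lists of marker genes, and 13 stayed unnamed. A class is called "-like" because its name rests on these markers alone. Excitatory and inhibitory neurons are abbreviated ExN and InhN, the medial and the caudal ganglionic eminence, where interneurons are born, MGE and CGE, and D1 and D2 stand for the dopamine receptors of the striatal projection neurons. Orders of levels are given among the 18 named classes unless clusters are named. "Excitatory nuclei" below are the 24295 nuclei of 3 named classes, L6b/subplate-like, deep-layer-like and upper-layer-like ExN, which leave out the unnamed excitatory clusters, and "gated excitatory nuclei" are the 39171 that passed a gate of excitatory genes whatever their cluster. Levels are counts per 1000000 UMIs (CPM), from UMIs summed over the nuclei of a class and library, and are compared within a gene, not between genes. Free RNA was not subtracted. In microglia-like nuclei, which arise outside the neural lineage, Lmo3 stood at 48.3 CPM, Lmo4 at 39.5, Nr2f1 at 25.4, Lhx2 at 16.6, Nr2f2 at 15.0, and Emx1, Emx2 and Pax6 at 0.861, 3.33 and 6.38. Levels at or below these in other classes are not read as expression. The microglia-like class was a cluster of 626 nuclei led by Mrc1, F13a1 and Stab1, which were not in its marker list. Its levels are no shared level of free RNA, since other classes lay below them, such as D1 striatal-like nuclei at 2.56 CPM of Lhx2. A level below this bar is thus not shown to be absence of the gene. Myt1l itself was counted in both genotypes, and in excitatory nuclei it stood at 1534 ± 113 CPM in WT and 1864 ± 138 in Het libraries, with all 4 Het values above all 8 WT values (exact permutation test, two-sided p = 0.00404; edgeR log2 difference 0.27 ± 0.077 SE, adjusted p = 0.197). The share of all genes that separated the genotypes in this way was not counted. Of all genes tested in excitatory nuclei, 13.9% had an unadjusted p under 0.05 in edgeR. A level that is not lower in Het libraries does not check the genotype labels.

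All 8 genes are protein coding. On GRCm38 they lie at chr13:78188973-78199757 (Nr2f1), chr7:70351944-70366735 (Nr2f2), chr6:85187438-85204462 (Emx1), chr19:59458372-59465357 (Emx2), chr2:105668900-105697364 (Pax6), chr2:38339281-38369733 (Lhx2), chr6:138362918-138581968 (Lmo3) and chr3:144188530-144205220 (Lmo4). Emx1 overlaps no other annotated gene. Nr2f1 overlaps A830082K12Rik, Emx2 overlaps Emx2os, Pax6 overlaps Pax6os1, Lhx2 overlaps Gm27197 and Gm13584, and Lmo3 overlaps A830011K09Rik, Gm30332 and B230110G15Rik, all on the opposite strand. Nr2f2 overlaps the noncoding B130024G19Rik on the opposite strand, and Gm43445 lies inside an intron of Lmo4 on the same strand. The sources used here do not say whether counting used strand, and reads of these genes and their partners may not be told apart. UMIs divided between several genes made up 0.0364% (Nr2f2) to 1.19% (Emx1) of a gene's UMIs.

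Myt1l and its relatives bind DNA at a core of AAGTT. The 250 bases before the start site of 3 genes are shown. Lhx2 and Lmo4 were chosen because the comparisons of levels between genotypes below turn most on them, and Nr2f2 for its 2 matches to this core. A window of Nr2f1 held 2 as well and is not shown. Capitals mark AAGTT or its reverse complement AACTT, which cannot overlap. The sequences are RefSeq's on GRCm38.p6, read 5′ to 3′ towards the gene, from chr7:70366747-70366996 on the minus strand (Nr2f2), chr2:38339031-38339280 on the plus strand (Lhx2) and chr3:144205256-144205505 on the minus strand (Lmo4).
Nr2f2: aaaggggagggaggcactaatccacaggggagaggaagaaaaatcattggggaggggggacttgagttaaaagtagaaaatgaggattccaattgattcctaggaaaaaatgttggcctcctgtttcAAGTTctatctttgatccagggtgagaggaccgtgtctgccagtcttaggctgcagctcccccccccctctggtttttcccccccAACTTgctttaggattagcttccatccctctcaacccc
Lhx2: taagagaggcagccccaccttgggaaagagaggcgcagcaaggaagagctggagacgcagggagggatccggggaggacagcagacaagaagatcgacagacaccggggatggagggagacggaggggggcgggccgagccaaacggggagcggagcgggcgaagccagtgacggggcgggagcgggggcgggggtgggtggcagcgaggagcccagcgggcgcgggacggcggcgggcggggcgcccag
Lmo4: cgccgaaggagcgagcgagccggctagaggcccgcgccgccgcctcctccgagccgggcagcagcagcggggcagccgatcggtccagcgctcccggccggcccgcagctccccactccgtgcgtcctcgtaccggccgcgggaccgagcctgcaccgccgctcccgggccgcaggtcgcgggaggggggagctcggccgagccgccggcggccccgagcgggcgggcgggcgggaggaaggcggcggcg
Nr2f2 held 2 matches in 250 bases, and Lhx2 and Lmo4 held 0 in the windows shown. Over all 32851 mouse promoters of this length, 35.3% held at least 1 match. Of the other start sites, those of Nr2f1 held 1 and 2 matches and those of Pax6 held 1 each. Another start of Lmo4 held 1 and a further one 0, another start of Lhx2 held 0, and the windows of Emx1, Emx2 and Lmo3 held 0. A match is a run of letters and no evidence of binding.

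Of the progenitor factors, Pax6 stood at 92.3 ± 16.7 CPM (SD, n = 12) in astroglia-like nuclei, 81.5 ± 18.5 in cycling progenitor-like nuclei and 76.0 ± 17.3 in immature olfactory-type InhN-like nuclei, the newborn interneurons of the olfactory bulb. The ranges of these 3 classes overlapped. The next class, choroid/ependymal-like, had 24.0 ± 21.1 CPM (n = 9), and excitatory nuclei of the named classes had 1.45 ± 0.789. Among cycling progenitor-like nuclei, Pax6 had 104 ± 20.9 CPM in the largest cluster, led by Top2a and Neil3, and 4.07 ± 7.46 in a cluster that had Pdgfra, a gene of oligodendrocyte precursors, among its leading genes. Within astroglia, Pax6 was split, with 165 ± 35.2 CPM in a cluster led by Veph1 and Hgf and 65.5 ± 9.16 in a cluster led by Tnc and Fabp7, whereas Nr2f1 had 33.6 ± 17.5 in the first and 86.8 ± 26.6 in the second.

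Emx2 was highest in Cajal-Retzius-like nuclei, the early reelin-making neurons of the cortical surface, at 69.7 ± 20.3 CPM, and its lowest library there, 41.3, lay above the highest library of the next class, astroglia-like, 31.6. Olfactory bulb projection ExN-like nuclei, with a lower mean of 13.9 ± 14.7 (n = 11), reached 46.0 in their highest library, inside the Cajal-Retzius-like range. Astroglia-like nuclei had 21.5 ± 6.41 and cycling progenitor-like nuclei 15.7 ± 9.13, which overlapped. In excitatory nuclei of the named classes Emx2 stood at 1.07 ± 0.681 CPM, below its microglia-like level. Emx1 was low in every class. Its best measured levels were 11.6 ± 4.32 in upper-layer-like, 9.40 ± 5.78 in L6b/subplate-like and 8.24 ± 3.02 in deep-layer-like ExN, with overlapping ranges. Its microglia-like level of 0.861 rested on 1 UMI in 1 library, and endothelial-like nuclei had 3.74 ± 4.68 CPM. The choroid/ependymal-like mean of 13.98 ± 18.5 CPM rested on few nuclei and spanned 0 to 52.9.

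Lhx2 was far higher in upper-layer-like than in deep-layer-like ExN. It stood at 87.7 ± 14.9 CPM in upper-layer-like ExN and at 7.12 ± 2.77 in deep-layer-like ExN, and the lowest upper-layer-like library, 60.4, was above the highest deep-layer-like one, 14.4, which is below the microglia-like level of 16.6. Olfactory bulb projection ExN-like (48.6 ± 26.6, n = 11), astroglia-like (41.0 ± 5.76), cycling progenitor-like (40.7 ± 8.67) and Cajal-Retzius-like nuclei (38.1 ± 17.2) followed without a gap. D1 striatal-like nuclei had 2.56 CPM. Unnamed clusters that scored best for upper-layer ExN varied in Lhx2. Against all other nuclei, its log2 difference was -0.62 in the cluster led by Tshr, 0.52 in that led by Ntf3 and Cntnap5c, and 1.30 in that led by Nwd2. The named upper-layer-like clusters had 0.95 to 1.80.

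The COUP-TF genes were both high in CGE InhN-like and mural/fibroblast-like nuclei and differed in excitatory and Cajal-Retzius-like ones. Nr2f1 was highest in CGE InhN-like nuclei (124 ± 18.8 CPM), then in mural/fibroblast-like (85.3 ± 19.99), upper-layer-like ExN (63.3 ± 9.38), astroglia-like (58.1 ± 18.7) and cycling progenitor-like nuclei (56.5 ± 17.6), each overlapping the next. It was lower in deep-layer-like ExN, at 19.5 ± 6.74, than in upper-layer-like ExN, and the ranges of these classes did not meet, with 32.7 the highest deep-layer-like and 46.2 the lowest upper-layer-like library. Nr2f2 had 166 ± 55.2 CPM in Cajal-Retzius-like, 151 ± 34.0 in mural/fibroblast-like, 115 ± 28.4 in CGE InhN-like and 107 ± 33.5 in endothelial-like nuclei, whose ranges overlapped. Its mean was no more than 27.5 in any other class. That highest mean, of olfactory bulb projection ExN-like nuclei, had an SD of 48.4 (n = 11). One library there reached 131 CPM, inside the ranges of the high classes. In excitatory nuclei Nr2f2 had 1.95 ± 1.52 CPM, below its microglia-like level. A small unnamed cluster of 561 nuclei, led by Mybpc1 and Frzb had 433 ± 138 CPM of Nr2f2 and 423 ± 99.4 of Lmo4 over its 8 libraries.

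Among the named classes, Lmo3 and Lmo4 were highest in D2 striatal-like nuclei, though some unnamed clusters described below had more of one or the other. Lmo3 had 337 ± 51.2 CPM in D2 striatal-like, 247 ± 49.4 in L6b/subplate-like, 226 ± 34.4 in D1 striatal-like, 176 ± 16.5 in upper-layer-like and 156 ± 30.7 in deep-layer-like nuclei, each overlapping the next. Lmo4 had 185 ± 34.9 CPM in D2 striatal-like, 155 ± 36.0 in mural/fibroblast-like and 140 ± 22.6 in D1 striatal-like nuclei, and 30.0 ± 9.35 in upper-layer-like and 35.4 ± 7.76 in deep-layer-like ExN, below the microglia-like level.

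**Figure D1:**
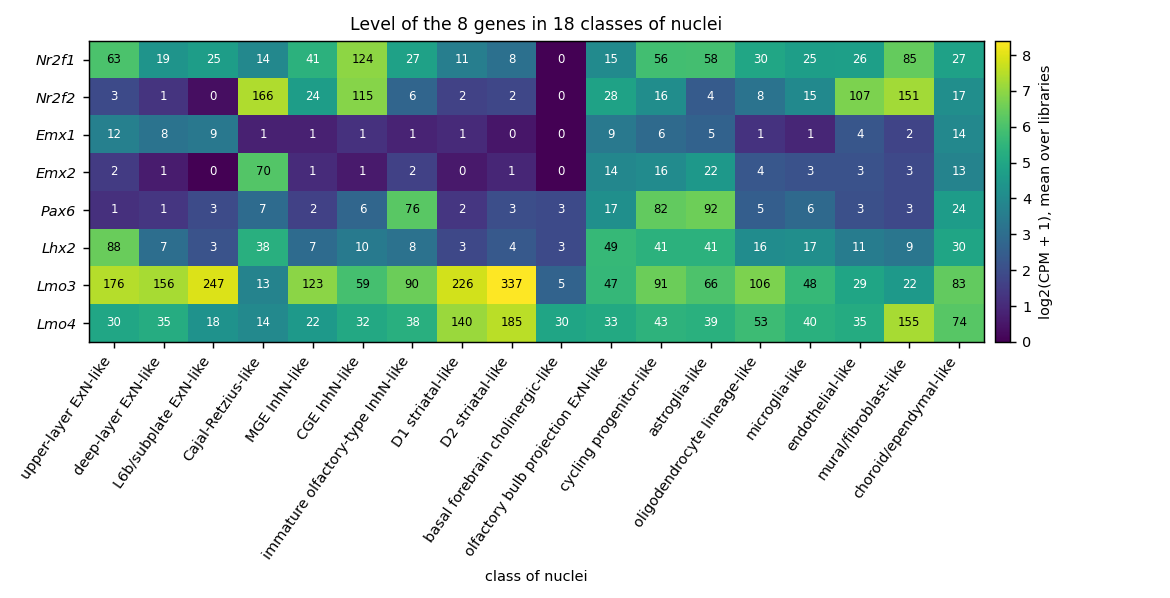
Mean level of the 8 genes (rows) in 18 classes of nuclei (columns), with the CPM written in each cell and colour showing log2(CPM + 1). Lhx2 stands at 88 CPM in upper-layer-like and 7 in deep-layer-like ExN, and Lmo3 and Lmo4 are highest in D2 striatal-like nuclei.

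Large differences lay also between excitatory clusters that had no class name, whose markers were too few or too weakly raised for one or, in the cluster led by Sema3c, pointed to 2 classes. In 3 large unnamed clusters, of which 80.0% to 84.3% of nuclei passed a gate of excitatory genes, Lmo4 was high. The cluster led by Tshr, Glis3 and Dkk2 (5398 nuclei) had 142 ± 38.0 CPM of Lmo4 with 33.5 ± 8.63 of Lmo3. The cluster led by Ntf3 and Cntnap5c (5068 nuclei) had 144 ± 26.2 and 42.7 ± 11.99, and that led by Il1rapl2 and Nr4a3 (4155 nuclei) had 131 ± 27.6 and 113 ± 32.4. Lmo4 in these clusters was thus above its level of 30.0 CPM in the named upper-layer-like class. Lmo3 stood at 240 CPM in the upper-layer-like cluster led by Rorb and at 10.0 ± 14.7 in the unnamed cluster led by Tshz2 and Ntf3, and it reached 461 ± 161 in the unnamed cluster led by Tfap2d, a factor of amygdala and related pallium. A cluster led by Nr4a2, Oprk1 and Tfap2d had 106 ± 32.0 CPM of Nr2f1, the highest among excitatory clusters, together with 205 ± 37.4 of Lmo4 and 204 ± 42.8 of Lmo3. The cluster led by Sema3c and Unc5d, which included Eomes, the factor of intermediate progenitors, among its leading genes, had the highest Lhx2, 122 ± 22.6, and Emx1, 22.8 ± 4.59, of the excitatory clusters, with 10.4 ± 6.18 of Emx2 and 17.3 ± 15.5 of Pax6. Clusters are groups of nuclei from the same 12 libraries, and these differences were not tested.

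With all gated excitatory nuclei in place of the named classes, Lmo4 rose from 32.5 ± 7.72 to 83.0 ± 18.6 CPM and Lhx2 stayed at 47.4 ± 14.3 against 46.8 ± 19.3.

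For 4 of the 7 members compared, the gene with the most alike pattern over classes was one that overlaps the member. Likeness was Pearson's r of log2(CPM + 1) over the means of 17 classes among 11581 genes, given as a description, since classes share libraries. For Nr2f1 these were A830082K12Rik (r = 0.85), Vegfc (0.83) and Ptpn3 (0.83). For Nr2f2 they were B130024G19Rik (0.97), Gm29683 (0.89) and Dvl3 (0.82), and for Emx2 they were Emx2os (0.97), Lyrm4 (0.85) and Zfp229 (0.84). Pax6 was followed by Edar (0.85), Pipox (0.83) and Cyp4f15 (0.82). Lhx2 was closest to Emx2 (0.74), a fellow member, then to Igdcc3 (0.74) and 6530402F18Rik (0.73). Lmo3 was closest to Gm45177 (0.93), Gm45183 (0.91) and Gm45182 (0.89), and Lmo4 to Gm43445 (0.97), Rarb (0.85), a retinoic acid receptor of striatal neurons, and Gm32592 (0.82). Emx1 did not reach the 20 CPM in a class that the comparison required.

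The shares of regional classes differed between libraries. D1 and D2 striatal-like nuclei made up 0.735% of nuclei in WT 4, 6.35% to 11.98% in the other WT libraries (median of all 8, 7.93%) and 8.57%, 16.9%, 9.97% and 13.1% in Het 1 to Het 4 (WT 7.72% ± 3.30, Het 12.2% ± 3.71, exact permutation test, two-sided p = 0.0444). The 2 olfactory classes made up 1.25% to 9.72% in WT and 1.36% to 4.40% in Het libraries (p = 0.303 by the same exact test). Choroid/ependymal-like nuclei made up 0.0387% to 1.04% in WT libraries (median 0.210%) and 1.14%, 1.89%, 1.502% and 0.214% in Het 1 to Het 4, so that 3 of the 4 Het libraries were above all WT libraries (p = 0.0364, likewise exact). The Tfap2d cluster made up 0.146% in WT 7, 0.305% in Het 2 and 0.464% in Het 3, and up to 5.83% in WT 6, whereas the Tshz2 and Ntf3 cluster made up 0.0193% in WT 4 and 3.76% in Het 3. A cluster led by Nr3c2 had 282 of its 390 nuclei in Het 3. In the mean over the 12 libraries, 7 of 8 marker genes of hypothalamus and all 7 of midbrain and hindbrain were below 1 CPM, though Pax3 reached 1.96 in WT 7 and Pax7 1.402 in Het 3. The summed level of 6 hippocampal marker genes in excitatory nuclei was 398 to 613 CPM in WT and 818, 838, 832 and 500 in Het 1 to Het 4, so that Het 1 to Het 3 were above all WT libraries as they were for Lhx2 below. Nectin3, of this list, was also a marker of the upper-layer-like class. Over all nuclei, Zbtb20 (869 CPM in WT, 1140 in Het) and Nectin3 (206, 266) were the highest of the list. Fibcd1 (0.938, 1.13) and Lct (1.07, 1.15) were the lowest. The sum is thus not a measure of hippocampal tissue alone. Over all nuclei, the summed lists for thalamus (659.8 to 1149.6 CPM in WT, 788 to 1189.6 in Het), septum and basal forebrain (35.9 to 97.0, 73.1 to 107) and amygdala and piriform cortex (1512 to 2670.1, 2106 to 2622) overlapped. In the thalamus list, Rora had means of 844 CPM in WT and 908 in Het, and Gbx2, Shox2 and Lhx9 had at most 2.16. In the amygdala and piriform list, Meis2, also a marker of the immature olfactory-type class, had 1310 and 1217, and Tfap2d 25.0 and 14.8. Zbtb20 counted in this list and in the hippocampal one. The sums for thalamus and for amygdala and piriform cortex thus follow a few genes and are no measure of these tissues alone. In excitatory nuclei, the amygdala and piriform list had 881 to 1204 CPM in WT and 789, 794, 843 and 1070 in Het 1 to Het 4. The striatum list had 92.0 to 134 and 70.0, 78.8, 83.6 and 149 there. For each of these lists, Het 1 to Het 3 were thus below all WT libraries. The thalamus list overlapped, with 335 to 1344 in WT and 427 to 1241 in Het. The part of such shares and levels in the members' differences was not tested. Striatal-like nuclei were found beside the cortical ones in every library.

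**Figure D2:**
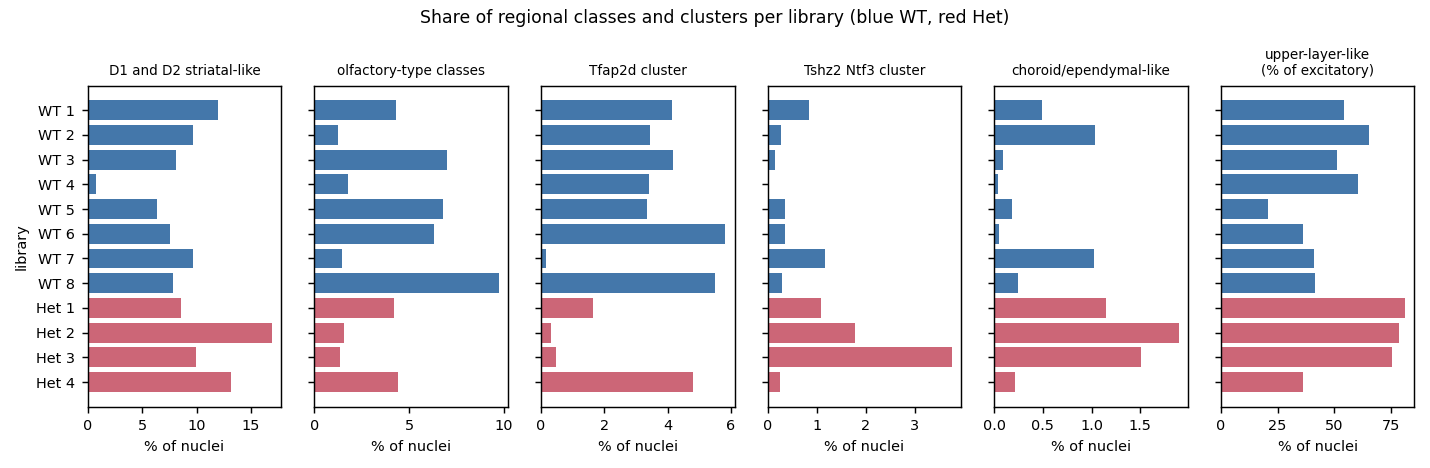
Percent of kept nuclei per library (bars, WT blue, Het red) in striatal-like, olfactory-type and choroid/ependymal-like classes and in the unnamed Tfap2d and Tshz2/Ntf3 clusters, with the percent of excitatory nuclei that were upper-layer-like at the right. WT 4 has 0.735% striatal-like nuclei, and Het 1 to Het 3 have 75.7% to 81.3% upper-layer-like nuclei against 36.2% in Het 4.

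The mix of layers differed too. Upper-layer-like nuclei made up 20.7% (WT 5) to 65.3% (WT 2) of excitatory nuclei in WT libraries, with a median of 46.3%, and 81.3%, 78.8%, 75.7% and 36.2% in Het 1 to Het 4. Among these named nuclei, Het 1, Het 2 and Het 3 were thus above all WT libraries and Het 4 was inside their range, and the means of 46.4% ± 14.4 and 68.0% ± 21.3 gave p = 0.0727 in the two-sided exact permutation test. Left out were unnamed clusters led by Tshr (5398 nuclei), Ntf3 (5068) and Nwd2 (2508). Their best score was for upper-layer ExN, below the minimum for a name. They made up means of 7.02%, 6.40% and 2.77% of nuclei in WT and 4.19%, 3.93% and 2.37% in Het libraries. In WT 2 these clusters held 630, 395 and 129 nuclei, and they held 238, 323 and 194 in Het 3. Counted as upper-layer-like, they would place Het 3 slightly below WT 2. The order of libraries above thus holds for the named nuclei alone. A difference in the tissue dissected and a difference in the neurons made by the animal cannot be told apart here.

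The spread over WT libraries in excitatory nuclei could be set against that of other genes for the 4 members with at least 50 UMIs per library. Lhx2 had a coefficient of variation of 27.2% over the 8 WT libraries, against 7.89% from counting alone, and Nr2f1 had 25.8%, against 8.12%. These stood at percentiles 95.5 and 94.5 of the 7550 genes with at least 50 UMIs per library, whose median was 11.7%. Lmo4 had 23.5%, at percentile 92.3, and Lmo3 12.03%, at percentile 52.0. Nr2f2, Pax6 and Emx2, with 3.56 to 5.5 UMIs per library, had 83.0%, 61.3% and 58.4%, where counting alone gave 42.6% to 53.0%. Within upper-layer-like ExN alone the spread was smaller, with 19.2% for Lhx2 (percentile 81.7) and 13.0% for Nr2f1 (percentile 50.8), where the median gene had 12.9%. Lmo4 and Emx1, with under 50 UMIs per library there, had 23.4% and 46.1%, against 23.5% and 23.1% in excitatory nuclei. Over all nuclei, the members with the largest spread were Emx2, Nr2f2 and Pax6, with 31.3% for Emx2, 29.01% for Nr2f2 and 27.2% for Pax6, where the median gene had 10.4%.

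A slope on the percent of striatal-like nuclei, fitted in excitatory nuclei with genotype as a further term, called 0 of 14333 genes (0%; edgeR, adjusted p under 0.05), 3.67% of them at an unadjusted p under 0.05, and DESeq2 called 0. Of the members, 7 were tested and none was called. Their slopes lay between -0.03 (Nr2f2) and 0.03 (Emx1) log2 units per percentage point, with an SE of 0.01 to 0.07 and adjusted p = 0.999998 for each.

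Between genotypes, no member was called in any class. A call needed an adjusted p under 0.05 in edgeR's quasi-likelihood test, over all genes of the class, and a log2 difference of at least 0.2. Of 144 pairs of member and class, 54 had enough counts to be tested, 31 with a positive and 23 with a negative difference (Het minus WT), and 0 were called, by DESeq2 likewise 0, with 9 at an unadjusted p under 0.05. Over all genes, 2 of 113478 pairs were called (0.00176%), both in D1 striatal-like nuclei, A330008L17Rik (-0.56) and Prr16 (-0.75), named here after their values were seen, with 6223 pairs at an unadjusted p under 0.05, and DESeq2 called 46. The fit in pairs of same-numbered libraries called 105 of its 120643 pairs of gene and class and none of the members. In excitatory nuclei 0 of 13556 genes were called (0%), with 1879 at an unadjusted p under 0.05 (13.9%), and DESeq2 called 48. Over all nuclei 0 of 20172 were called (0%), with 2122 at an unadjusted p under 0.05, and DESeq2 called 59.

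In excitatory nuclei, Lhx2 lay between 20.035 and 50.3 CPM in WT libraries, with a median of 41.3, and at 80.4, 68.5, 75.1 and 26.2 in Het 1 to Het 4. The first 3 Het libraries were above all WT libraries and Het 4 was near the lowest. The means were 38.9 ± 10.6 (SD, n = 8) and 62.6 ± 24.7 (n = 4), and the edgeR log2 difference was 0.71 ± 0.239 (SE; unadjusted p = 0.00944, adjusted p = 0.244). Nr2f1 had the same shape, with 20.7 to 48.8 CPM (median 38.6) in WT and 62.7, 53.9, 61.2 and 22.6 in Het libraries (0.46 ± 0.225, edgeR adjusted p = 0.377). Emx1 had 6.73 to 11.9 CPM (median 8.28) in WT and 13.2, 14.5, 14.4 and 7.54 in Het libraries (0.51 ± 0.179, edgeR unadjusted p = 0.0122, adjusted p = 0.253). Lmo3 (0.09, edgeR adjusted p = 0.721) and Lmo4 (0.24, edgeR adjusted p = 0.555) differed by less, and Nr2f2, Emx2 and Pax6 had too few counts.

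**Figure D3:**
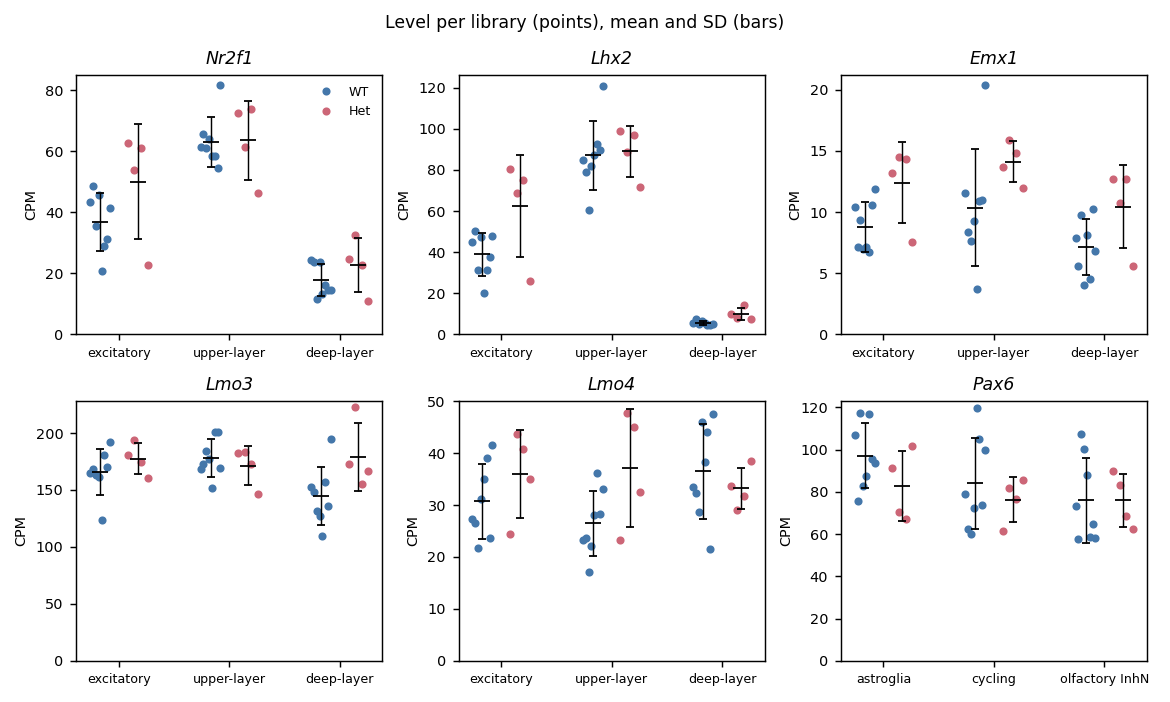
Level per library in CPM (points, 8 WT in blue and 4 Het in red) with mean and SD (bars) for 6 genes in 3 sets of nuclei each. Het 4 is the low red point of Lhx2, Nr2f1 and Emx1 in excitatory nuclei, and the genotypes overlap for Lhx2 in upper-layer-like ExN, with means of 87.0 and 89.0 CPM.

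The levels were also compared within layers and with the mix of layers held equal. Mix and genotype moved together in Het 1 to Het 3, and the part of the mix in the differences cannot be told apart from that of genotype by these values. Within upper-layer-like ExN, Lhx2 had 60.4 to 121 CPM (median 86.0) in WT and 99.0, 88.5, 96.9 and 71.5 in Het libraries, which overlap fully (0.09 ± 0.114, edgeR adjusted p = 0.928). Nr2f1 had 63.2 ± 8.22 and 63.6 ± 12.8 (0.07 ± 0.107, edgeR adjusted p = 0.935). Emx1 there had 3.74 to 20.4 CPM (median 10.1) in WT and 13.7, 15.9, 14.9 and 11.98 in Het libraries. All 4 Het values lay above 7 of the 8 WT libraries (3.74 to 11.6) and below WT 8, and its difference was as large as in all excitatory nuclei (0.51 ± 0.193, edgeR unadjusted p = 0.0164, adjusted p = 0.665). With upper-layer-like and deep-layer-like levels given equal weight in each library, Lhx2 had 46.3 ± 8.24 CPM in WT and 49.5 ± 7.42 in Het (exact permutation test, two-sided p = 0.533), Nr2f1 40.5 ± 4.98 and 43.2 ± 9.70 (p = 0.549 by the same exact test), and Emx1 8.75 ± 2.52 and 12.3 ± 2.35 (p = 0.0566, likewise exact). Pax6 had 0.985 ± 0.531 and 2.13 ± 0.480 (exact p = 0.0121, not adjusted over the members). These Pax6 levels were below that of microglia-like nuclei and are not read as expression. With the upper-layer-like percent as a covariate, an alternative added after the data had been seen, the log2 difference in excitatory nuclei was -0.01 ± 0.139 for Lhx2, -0.23 ± 0.107 for Nr2f1 (edgeR adjusted p = 0.615) and 0.24 ± 0.215 for Emx1. With all gated excitatory nuclei, Lhx2 differed by 0.54 ± 0.160 (edgeR adjusted p = 0.262) and Emx1 by 0.42 ± 0.166 (edgeR adjusted p = 0.337).

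**Figure D4:**
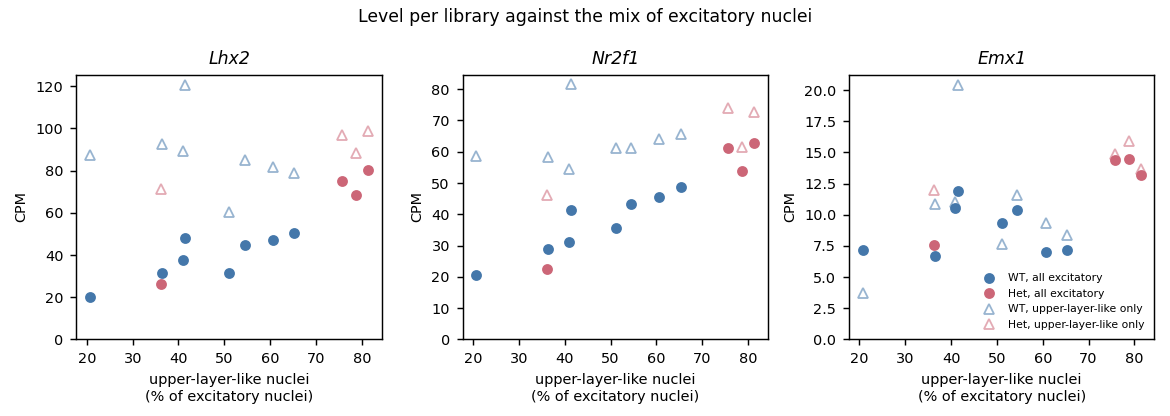
Level of Lhx2, Nr2f1 and Emx1 per library (vertical axis, CPM) against the percent of excitatory nuclei that were upper-layer-like (horizontal axis), in all excitatory nuclei (filled circles) and in upper-layer-like nuclei alone (open triangles). The Lhx2 circles run from 20.035 CPM in WT 5, at 20.7% upper-layer-like, to 80.4 in Het 1, at 81.3%, while the triangles of both genotypes lie between 60.4 and 121 CPM.

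Some alternatives called members. With every library and no filter on low counts, Lhx2 was called higher in Het in excitatory nuclei (0.73, edgeR adjusted p = 0.0448), as were 70 of 36565 genes in that direction (0.191%). Without Het 4, the only female Het library, Lhx2 (0.94, edgeR adjusted p = 0.00608), Emx1 (0.65, edgeR adjusted p = 0.0229) and Nr2f1 (0.68, edgeR adjusted p = 0.0255) were called higher in Het in excitatory nuclei, as were 222 of 14026 genes (1.58%) in that direction and 767 in both. Lhx2 was called without Het 4 over all nuclei too (0.63, edgeR adjusted p = 0.0373), as were 22 of 20431 genes in that direction (0.108%). With males only, Lhx2 (0.95) and Emx1 (0.73; edgeR adjusted p = 0.0376 for both) were called, with 66 of 14224 genes called higher (0.464%) and 211 in both directions. Upper-layer-like percents without Het 4 were 75.7% to 81.3% in Het and at most 65.3% in WT, so mix and genotype moved together in that comparison. Their part in the calls was not tested beyond the covariate and the equal weights above.

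In deep-layer-like ExN, Lhx2 was low in both genotypes, at 4.72 to 7.499 CPM (median 5.48) in WT and 9.86, 8.17, 14.4 and 7.38 in Het libraries. Only Het 4 overlapped the WT range, the edgeR log2 difference was 0.81 ± 0.224 (unadjusted p = 0.00171, adjusted p = 0.468), and the exact permutation test gave p = 0.00808. These levels were below the 16.6 CPM of microglia-like nuclei and are not read as expression. L6b/subplate-like nuclei, at a mean of 3.41 CPM, and D1 striatal-like nuclei, at 2.56, had less, so this bar does not show absence. In D2 striatal-like nuclei Lhx2 had 1.80 ± 2.09 CPM in WT and 7.48, 6.33, 17.8 and 3.24 in Het libraries, of which Het 3 alone was above the microglia-like level. Lhx2 over all nuclei had 27.3 ± 4.15 in WT and 44.2, 37.0, 48.6 and 20.1 in Het libraries, so that Het 3 was highest in all 3 sets. The part of free RNA in this was not tested. Lmo3 in deep-layer-like ExN had 144 ± 25.3 and 179 ± 29.8 CPM (0.32 ± 0.120, edgeR adjusted p = 0.591), and in upper-layer-like ExN 178 ± 16.7 and 171 ± 17.3. The log2 ratio of upper-layer-like to deep-layer-like level differed between genotypes by -0.37 for Lmo3 (Het minus WT, exact permutation test, two-sided p = 0.0364, 0.0818 adjusted over 9 such ratios) and by -0.73 for Lhx2 (exact p = 0.00808, adjusted 0.0727).

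Of all pairs of member and class, Lmo4 in D2 striatal-like nuclei had the smallest adjusted p. In D2 striatal-like nuclei it had 163 to 234 CPM (median 204) in WT and 151, 153, 138 and 157 in Het libraries. All 4 Het libraries lay below all 8 WT libraries, as they did for 11 of the 6589 genes tested there (0.167%), and the exact permutation test gave 0.00404, its smallest possible p. WT 4 entered with 13 nuclei of this class, the fewest of all libraries, where 10 were needed. Its value weighed as much as any other in this order and in the exact test. The edgeR log2 difference was -0.48 ± 0.113 (adjusted p = 0.168), and DESeq2 gave -0.48 (adjusted p = 0.308). In D1 striatal-like nuclei Lmo4 had 149 ± 18.9 CPM in WT and 116, 129, 98.6 and 139 in Het libraries, which overlapped (-0.32 ± 0.103, edgeR adjusted p = 0.645). In upper-layer-like ExN the sign was opposite and the difference the largest of Lmo4 in size, with 17.2 to 36.1 CPM (median 25.8) in WT and 23.3, 47.8, 45.0 and 32.5 in Het libraries (0.57 ± 0.184, edgeR unadjusted p = 0.00615, adjusted p = 0.536). It was called there without Het 1 (0.78, edgeR adjusted p = 0.0485, with 0.089% of genes called higher) and with no filter on low counts (0.60, edgeR adjusted p = 0.0018, with 0.314% of genes called higher), at a mean below the 39.5 CPM of microglia-like nuclei in both genotypes. The class held 3 clusters, of which that led by Rasgrf2 and Mdga1 had the highest Lmo4 (58.2 ± 24.2 CPM, against 34.9 ± 9.83 and 16.5 ± 5.55 in the others). This cluster gave 5.86% to 22.2% of upper-layer-like nuclei in WT libraries and 11.6%, 28.7%, 22.0% and 12.2% in Het 1 to Het 4, and its part in the difference was not tested. The difference between genotypes differed between upper-layer-like and D2 striatal-like nuclei by 0.89 (exact permutation test, two-sided p = 0.0162, adjusted 0.0727) and between upper-layer-like and D1 striatal-like nuclei by 0.78 (exact p = 0.0283, adjusted 0.0818). In gated excitatory nuclei, which include the Lmo4-rich unnamed clusters, Lmo4 had 90.3 ± 13.4 CPM in WT and 54.3, 61.5, 58.6 and 98.9 in Het libraries (-0.41 ± 0.139, edgeR adjusted p = 0.288), so the direction in excitatory nuclei turned with the definition. Each of the 3 Lmo4-rich clusters made up less of the nuclei in Het 2 and Het 3 than in any WT library, and the Tshr cluster, for example, made up 4.44% to 12.1% in WT and 5.28%, 2.20%, 2.17% and 7.14% in Het 1 to Het 4. Over all nuclei, Lmo4 differed by -0.27 ± 0.104 (edgeR adjusted p = 0.390).

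Elsewhere, Nr2f1 in immature olfactory-type InhN-like nuclei had 13.3 to 33.0 CPM (median 16.4) in WT and 20.5, 68.5, 48.1 and 34.1 in Het libraries, and 3 of the 4 Het libraries were above all WT (1.01 ± 0.306, edgeR unadjusted p = 0.00389, adjusted p = 0.999989). All but 1 of the WT values, and that of Het 1, were below the 25.4 CPM of microglia-like nuclei. The share of all genes with 3 Het libraries above all WT in this class was not counted. Emx2 in cycling progenitor-like nuclei had 12.3 ± 7.93 and 22.4 ± 8.24 CPM and its ranges overlapped (1.02 ± 0.361, edgeR unadjusted p = 0.0102, adjusted p = 0.999). Nr2f2 in mural/fibroblast-like nuclei had 163 ± 30.5 and 127 ± 30.0 (-0.35 ± 0.165, edgeR unadjusted p = 0.0463, adjusted p = 0.999937). In olfactory bulb projection ExN-like nuclei Nr2f2, with 33 UMIs in all, had 0 to 15.9 CPM in 7 WT libraries and 11.1, 131, 118 and 0 in Het libraries. It had too few counts for the main test and was called with no filter on low counts (2.74, edgeR adjusted p = 0.0023, with 0.178% of genes called higher there). Pax6 was tested in 3 classes, lay between -0.25 and -0.01, and its closest to a difference was in astroglia-like nuclei with 97.1 ± 15.5 and 82.6 ± 16.5 CPM (edgeR adjusted p = 0.876).

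**Figure D5:**
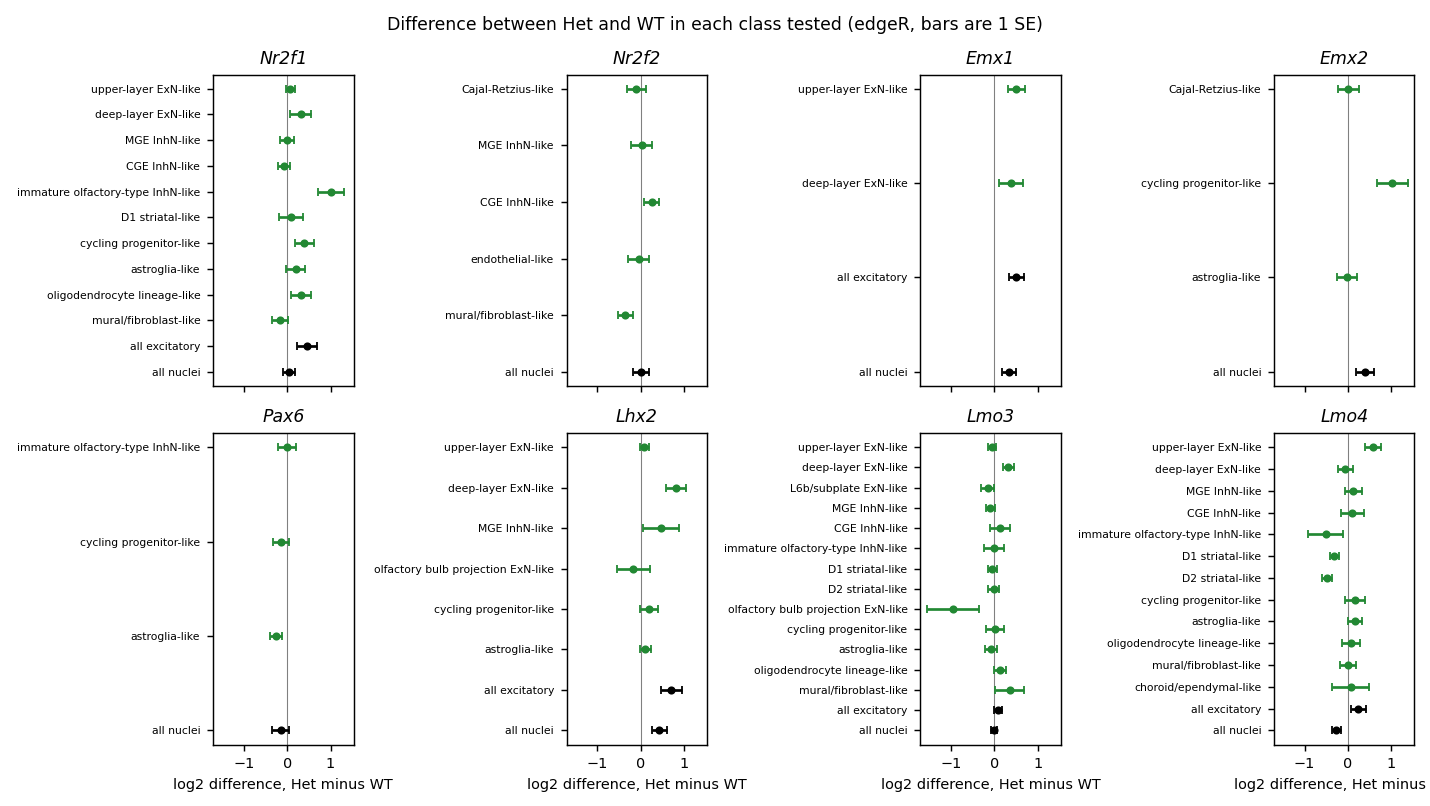
Log2 difference between genotypes (Het minus WT, points, with bars of 1 SE, edgeR) for each of the 8 genes in every class with enough counts (green) and in all excitatory and all nuclei (black). None of the points was called, and Lmo4 lies at -0.48 in D2 striatal-like and 0.57 in upper-layer-like nuclei.

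The other genes of the patterning pathways gave 0 calls in any class. In excitatory nuclei, 18 of 18 area factors and markers of cortical neurons were tested, 11 positive and 7 negative, of which 7 had an unadjusted p under 0.05, as did 13.9% of all genes. Their median log2 difference was 0.12, where the median over all genes was -0.004. Among those below 0.05 were Tenm3, a cell-adhesion teneurin (0.81), Mef2c (0.38) and Bcl11a (0.30), and Fezf2 (-0.72), Tbr1 (-0.42) and Epha7 (-0.30). Fezf2 and Tbr1 are factors of deep layers. Of 13 genes of rostral FGF signalling 7 were tested, 3 positive and 4 negative, and of these Etv5 (-0.85) and Etv1 (-0.72), transcription factors induced by FGF, had an unadjusted p under 0.05. Of the 10 hem WNT and BMP genes 3 were tested, of the 9 other progenitor factors 3, of the 10 LIM partners 4 and of the 10 COUP-TF partners and relatives 7, with Gli3 (0.67), a progenitor factor, and Rxrg (0.79) and Nr2c2 (0.16), nuclear receptors related to the COUP-TFs, at an unadjusted p under 0.05. Over the 18 classes, the median log2 difference of the rostral FGF list lay between -0.27 in microglia-like nuclei (3 genes tested) and 0.35 in olfactory bulb projection ExN-like nuclei (2 tested). The class with the most tested genes of the list was astroglia-like, with 0 positive and 8 negative and a median of -0.14, followed by cycling progenitor-like, with 1 positive and 6 negative and a median of -0.097, and oligodendrocyte lineage-like, with 2 positive and 5 negative.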

How the data were processed

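Nuclei of 12 forebrains had been barcoded by split pooling (ScaleBio). The authors counted UMIs with ScaleRna on mm10, called nuclei against free RNA, and deposited unnormalized estimated counts (expected counts) per gene and nucleus, in which UMIs that fitted several genes were divided between them. Sums were rounded before count tests, since the design had assumed whole counts. The submitters' processing notes name Seurat 4.3.0. Positions are from GENCODE M21, sequences from RefSeq, and all 8 symbols matched both.

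Of 126684 barcodes, 100035 passed the study's filter (at least 300 and at most 3000 genes, 800 to 6000 UMIs, of which at most 1% mitochondrial, and log genes over log UMIs at least 0.9). The 5% of barcodes per library with the highest simulated-doublet score were marked, and 3645 that had passed were removed. Nuclei were clustered (leidenalg 0.10.2, 20 neighbours, 50 components, 3000 variable genes without the members, resolution 1.5). A cluster was named with at least 3 markers raised by 0.5 on the log2 scale, a mean score of at least 0.4 that led by 0.2, and at least 1 where no own marker was among the 10 leading genes. The limits for naming were chosen with the clusters in view. The members, marker lists and pathway lists were chosen with earlier results of these data known. Genes planned to be named were the members, Myt1l, the 3 most alike genes per member and called pathway genes. No pathway gene was called. The pathway genes named, like the single marker genes of regions and the genes that lead clusters, were chosen after their values were seen.

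Sums per library were tested where at least 3 libraries per genotype had 10 nuclei of a class, with edgeR 4.0.16 (R 4.3.3; TMM, filterByExpr, quasi-likelihood, genotype only, Benjamini-Hochberg adjustment), and DESeq2 1.42.0 as an alternative. Single values were compared by exact permutation over libraries (scipy 1.17.1). The fits in excitatory nuclei were tried on simulated counts. Of simulated log2 differences of 1 and 1.5, 83% and 95% were called, with 3.78% of calls false. Of simulated slopes of 0.2 and 0.3 per percentage point, 96% and 100% were called, with 7.55% of calls false. Smaller differences, and a mix of layers that differed between genotypes, were not simulated. p-values measure the spread between animals. Titles number the animals within sex, and the deviations of same-numbered WT and Het libraries from their group means correlated in all 4 pairs (0.44, 0.20, 0.21 and 0.14 over 8043 genes), so the numbers were treated as pairs in a blocked alternative, though 3 of the 4 Het libraries correlated best with a WT library of another number.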

Additional observations from a re-analysis of the deposited data

Results flagged for a closer look

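Of 150 groups of library values screened, 16 held a library that stood apart from the others of its genotype by Dixon's test, of which about 1 in 20 groups are expected by chance. In upper-layer-like ExN, WT 8 had 81.6 CPM of Nr2f1, where the other WT libraries had 54.6 to 65.5, and 20.4 CPM of Emx1 against 3.74 to 11.6. WT 8 also had 183 CPM of Nr2f2 in CGE InhN-like nuclei against 64.6 to 116, and 26.6 over all nuclei against 11.4 to 17.7. Nr2f1 in D1 striatal-like nuclei was at 41.1 CPM in WT 4, the library with 0.735% striatal-like nuclei, and at 5.41 to 12.1 in the other WT libraries. The WT 4 value rested on 25 nuclei. WT 2 had 33.0 CPM of Nr2f1 in immature olfactory-type InhN-like nuclei (others 13.3 to 21.8), 163 CPM of Lmo3 in olfactory bulb projection ExN-like nuclei (from 23 nuclei, others 15.1 to 74.8) and 6.77% of mural/fibroblast-like nuclei (others 1.73% to 3.99%). WT 5 had 123 CPM of Lmo3 in excitatory nuclei (others 162 to 192) and 97.2 CPM of Nr2f2 in mural/fibroblast-like nuclei (others 151 to 198), and WT 6 had 168 CPM of Lmo3 in MGE InhN-like nuclei (others 107 to 135).

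Among Het libraries, Het 3 had 143 CPM of Nr2f2 in CGE InhN-like nuclei against 119.7 to 120.4, and 106 CPM of Nr2f1 in cycling progenitor-like nuclei against 46.1 to 53.9. Het 1 had 172 CPM of Nr2f2 in mural/fibroblast-like nuclei against 109 to 116. Het 4 had 20.03% of excitatory nuclei against 27.9% to 28.3%, and 36.2% of these were upper-layer-like against 75.7% to 81.3%.

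In 4 of 9 ratios between classes, the difference between genotypes differed between the classes at an unadjusted p under 0.05 in the exact permutation test, and at none after adjustment over the 9. For Lhx2 it was lower in upper-layer-like than in deep-layer-like ExN by -0.73 (exact p = 0.00808), and for Lmo3 by -0.37 (exact p = 0.0364). The deep-layer-like level of Lhx2 was below that of microglia-like nuclei. For Lmo4 it was higher in upper-layer-like ExN than in D1 striatal-like nuclei by 0.78 (exact p = 0.0283) and than in D2 striatal-like nuclei by 0.89 (exact p = 0.0162), and its upper-layer-like mean was likewise below the microglia-like level.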

How the results depend on the processing

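With no filter on low counts 2 member pairs were called in place of 0, Lmo4 in upper-layer-like and Nr2f2 in olfactory bulb projection ExN-like nuclei, and 0 to 1 with a library left out. Genes called in excitatory nuclei, 0 in the main test, were 48 with DESeq2, 127 with no filter, 1 with sex as a covariate, 211 with males only, 2 at resolution 0.8 and 0 to 767 with a library left out, of which 767 without Het 4. Over all nuclei they were 59 with DESeq2, 21 with males only and 0 to 53 with a library left out, of which 53 without Het 4. Along the striatal share they were 4 with no filter, and 0 with any library left out and with the olfactory share in its place, which was chosen after seeing the data. With the upper-layer share as a covariate, also chosen after seeing the data, the log2 difference in excitatory nuclei reversed for Nr2f1 (-0.23), Lhx2 (-0.014) and Lmo3 (-0.0102). Over all nuclei, differences near 0 reversed for Nr2f1 with sex as a covariate (-0.012), for Nr2f2 with DESeq2 (-0.012) and with doublets kept (-0.0022), and for Lmo3 with males only (0.0047). With a library left out they ranged from -0.0732 to 0.184 for Nr2f1, from -0.15 to 0.14 for Nr2f2 and from -0.046 to 0.0198 for Lmo3. The cause was not tested. The replicate block of same-numbered libraries, 4 of each genotype, called 0 genes in excitatory nuclei, 0 over all nuclei and 0 members, and changed no other call of a member. Of the alternatives for single members, 237 kept direction and side of the threshold, 18 reversed and 7 passed the threshold that the main test missed. Depth limited the tests to 54 of 144 member pairs. In excitatory nuclei the level of Lmo4 moved from 32.5 to 83.0 CPM, Lmo3 from 170 to 138, Nr2f2 from 1.95 to 4.21 and Emx2 from 1.07 to 2.11 with gates on single nuclei.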
